A study of Brassica rapa with 23 samples.

Results

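MYB34, MYB51 and MYB122 are transcription factors that, in Arabidopsis, switch on the genes for indolic glucosinolates, the sulfur-rich defense compounds made from tryptophan. Their copies were followed by gene ID in Chinese cabbage (Brassica rapa ssp. pekinensis). They are 4 copies of MYB34 (Bra013000, Bra035954, Bra029349 and Bra029350), 3 of MYB51 (Bra016553, Bra031035 and Bra025666) and 2 of MYB122 (Bra015939 and Bra008131), together 9 of the 41020 genes listed for each library. The copy names rest on the gene lists of the work and were not checked by sequence. Leaf discs of the wild-type cultivar Norang, from the first true leaf of plants grown for 17 days in short days, were treated for 30 or 180 min. Chitin (100 μg per ml, a polymer of the fungal cell wall) and flg22 (100 nM, a short stretch of flagellin, the protein of bacterial flagella) had 3 RNA-Seq libraries each at each time. Water had 5 libraries at 30 min and 6 at 180 min, which fall under 3 replicate numbers at each time. Water libraries with a common replicate number are named here by the rest of their title as well (2-s9 and 2-s13). The study lists separate water controls for chitin and for flg22, with 1 library at 30 min shared by both. The labels do not say which water library served which elicitor. By title number, 1-s1, 1-s3, 2-s9, 2-s11, 3-s17 and 3-s19 come directly before a flg22 library. Libraries 1-s7, 2-s13, 2-s15, 3-s21 and 3-s23 come directly before a chitin library. Under this split, the mapped reads that the study lists rank same-numbered water libraries of a time as their aligned sequence does. The split did not enter the main fit, in which all water libraries of a time were used. Each elicitor was thus also compared with water libraries of the other control set. Whether water libraries with 1 replicate number came from separate RNA samples is not given in the sources used here, so p-values measure only the spread between libraries.

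Indolic glucosinolates start with the conversion of tryptophan by the CYP79B enzymes, and their products are used against pathogens and herbivores. In Arabidopsis, MYB51 is the main indolic regulator of the shoot and is needed for the callose that leaves lay down after flg22, MYB34 acts mostly in the root, and MYB122 has an accessory role. B. rapa carries several copies of many Arabidopsis genes because its genome was triplicated. The question here was which copies were used in the leaf and whether copies of 1 gene responded alike to the elicitors.

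In the v1.5 chromosome build, the MYB51 copies lie at chrA08:18248352-18249890 (Bra016553, minus strand), chrA09:34590740-34591991 (Bra031035, minus strand) and chrA06:6841688-6842966 (Bra025666, plus strand). The MYB122 copies lie at chrA07:23411313-23412768 (Bra015939) and chrA02:12327349-12329278 (Bra008131), and the MYB34 copies Bra013000 and Bra035954 at chrA03:21129279-21130669 and chrA09:3356433-3357581, all on the plus strand. Bra029350 (chrA02:25172906-25179858) and Bra029349 (chrA02:25183826-25184998) are neighbours on the plus strand of A02 with 3967 bp and no other listed gene between them. The listed span of Bra029350 is 6953 bp, against 1149 to 1930 bp for the other 8 copies. No listed gene overlaps any of the 9. How the read counting treated reads that match more than 1 copy is not given in the sources used here, so values of similar copies are uncertain to that extent.

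Values are FPKM, reads relative to gene length and to the mapped reads of the library, so levels of different genes can be set side by side. The libraries held between 4.09 and 5.64 gigabases of aligned sequence. BraNHL10 (Bra017272), the B. rapa copy of an Arabidopsis gene that responds rapidly to microbial elicitors, served as a check of the treatments. Its lowest FPKM was 293.7 in chitin and 961 in flg22 libraries, against a highest of 14.9 in water libraries at 30 min. At 180 min its lowest was 93.9 in chitin and 79.8 in flg22 libraries, against a highest of 17.5 in water libraries. One library stood apart among the chitin libraries at 30 min: replicate 1 had 697 FPKM of BraNHL10, against 383 and 293.7 in replicates 2 and 3. The log2 fold changes, fitted with limma on log2(FPKM + 1) across all 23 libraries, understate the change of low genes. A gene was called where its Benjamini-Hochberg adjusted p, over the 24384 genes tested, was under 0.05. Over all tested genes, the log2 fold change against water had a median of -0.46 with chitin and -0.47 with flg22 at 30 min, and of -0.12 and 0.01 at 180 min. Scaling the libraries to a common median ratio brought these medians to -0.03, -0.04, 0.00 and 0.01. BraEF1α (Bra006661), a translation factor gene used as a reference in PCR, had a log2 fold change of -0.77 (limma adjusted p = 0.00712) for chitin at 30 min, and -0.26 after that scaling. For flg22 at 30 min it was -0.43 (adjusted p = 0.103), and 0.09 after scaling.

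Of the 9 copies, 7 reached 1 FPKM in at least 3 libraries and were tested. Those below were the MYB34 copies Bra013000 and Bra035954. Bra013000 was listed at 0 in 15 of 23 libraries and its highest value was 0.139 FPKM, in a water library at 180 min. Bra035954 was listed at 0 in 19 libraries and reached at most 0.114 FPKM, also in a water library at 180 min. The average read coverage of both stayed at or below 0.637 reads per base in every library. Without read counts no limit of detection could be given, and no fold change is given for either copy.

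Of the MYB51 copies, Bra016553 had the highest FPKM in 23 of 23 libraries, followed by Bra031035 and then Bra025666. Averaged over the 23 libraries they had 334, 38.8 and 2.27 FPKM. After 30 min, all 3 copies were higher in chitin and flg22 libraries than in every water library. Bra016553 had 659, 709.6 and 723 FPKM in chitin and 788, 689.5 and 734 FPKM in flg22 libraries, against 87.7, 124, 57.7, 162 and 66.2 FPKM in water libraries. Its means, 697 ± 33.6 with chitin and 737 ± 49.1 with flg22 (SD, n = 3 each), were 7.01 and 7.41 times that of water, 99.5 ± 43.3 (SD, n = 5). The fitted log2 fold changes were 2.90 ± 0.33 (SE, limma adjusted p = 3.8e-07) for chitin and 2.98 ± 0.33 (adjusted p = 1.6e-07) for flg22.

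Bra031035 started lower and moved further. At 30 min it had 70.6, 114 and 67.5 FPKM in chitin and 109.9, 117 and 159 FPKM in flg22 libraries, against 7.58, 7.24, 4.21, 13.9 and 2.71 FPKM in water libraries. The lowest treated library was thus well above the highest water library, and the log2 fold changes were 3.51 ± 0.43 for chitin (limma adjusted p = 1.0e-06) and 4.14 ± 0.43 for flg22 (adjusted p = 6.3e-08). Bra025666 stayed a minor copy. It had 3.21, 5.47 and 4.17 FPKM in chitin and 3.20, 5.31 and 5.08 FPKM in flg22 libraries, against 1.37, 1.96, 0.66, 1.07 and 0.39 FPKM in water libraries at 30 min. Its groups did not overlap either, with log2 fold changes of 1.37 ± 0.22 (limma adjusted p = 3.3e-05) and 1.43 ± 0.22 (adjusted p = 1.3e-05).

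**Figure D1:**
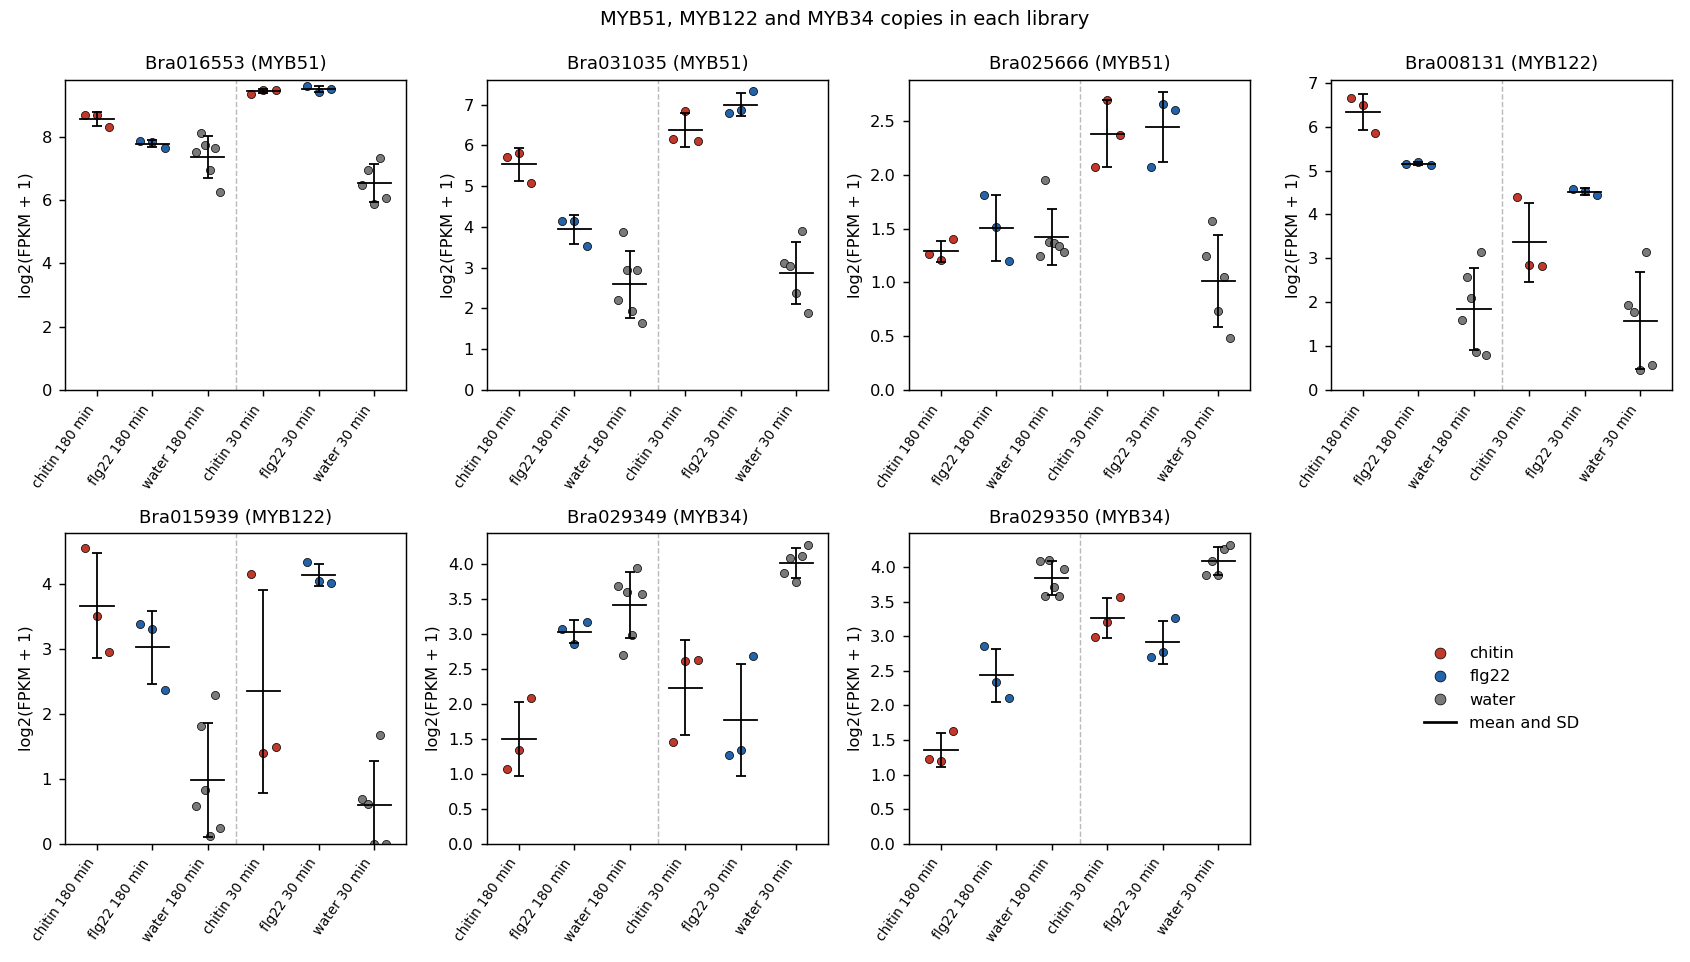
Level of the 7 tested copies in each library, as log2(FPKM + 1), by treatment and time. Each point is 1 library, lines and bars are the mean and SD, and vertical scales differ between panels. MYB51 and MYB122 copies lie higher, and MYB34 copies lower, in chitin and flg22 than in water libraries at 30 min. The exception is that 2 chitin libraries lie below 1 water library, 3-s17, for both MYB122 copies.

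Both MYB122 copies were low in water libraries and rose with flg22 at 30 min. Bra008131 had 23.0, 22.1 and 20.7 FPKM in flg22 libraries and 20.2, 6.25 and 6.09 FPKM in chitin libraries, against 2.81, 2.41, 0.38, 7.91 and 0.48 FPKM in water libraries. Bra015939 had 19.2, 15.6 and 15.3 FPKM in flg22 and 16.8, 1.64 and 1.80 FPKM in chitin libraries, against 0.60, 0.52, 2.20 and 2 values of 0 in water libraries. All flg22 libraries were above all water libraries for both copies, with log2 fold changes of 2.94 ± 0.55 (limma adjusted p = 0.000104) for Bra008131 and 3.55 ± 0.58 (adjusted p = 2.5e-05) for Bra015939.

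With chitin at 30 min, the values of both MYB122 copies overlapped water only through library 3-s17, which comes before a flg22 library by title number. The shared library 1-s1 and those before chitin libraries, 2-s13 and 3-s21, had at most 2.81 FPKM of Bra008131 and 0.60 of Bra015939. These values lay below all chitin libraries, and no fold change against these libraries alone is given here. The calls of both copies rested on chitin replicate 1. Their log2 fold changes passed the test, at 1.79 ± 0.55 for Bra008131 (limma adjusted p = 0.00794) and 1.76 ± 0.58 for Bra015939 (adjusted p = 0.0127). Without chitin replicate 1, the library with the most BraNHL10, they were 1.27 (adjusted p = 0.0758) and 0.85 (adjusted p = 0.179), and neither was called. The call of Bra015939 was also lost at the lowest of the choices of 1 water library per replicate number (1.36). The part of chitin replicate 1 in the result was not tested further.

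The MYB34 copies went the other way. At 30 min Bra029349 had 1.73, 5.12 and 5.18 FPKM in chitin and 1.40, 1.54 and 5.45 FPKM in flg22 libraries, against 13.7, 15.9, 12.4, 16.3 and 18.4 FPKM in water libraries. Its neighbour Bra029350 had 6.98, 8.29 and 10.9 FPKM in chitin and 5.49, 5.87 and 8.63 FPKM in flg22 libraries, against 13.9, 16.0, 13.8, 18.3 and 19.1 FPKM in water libraries. Every treated library was below every water library for both copies. Bra029349 fell by 1.79 ± 0.33 on the log2 scale with chitin (limma adjusted p = 0.00015) and by 2.25 ± 0.33 with flg22 (adjusted p = 8.1e-06). Bra029350 fell by 0.83 ± 0.19 with chitin (adjusted p = 0.00108) and by 1.18 ± 0.19 with flg22 (adjusted p = 2.7e-05). The chitin fall of Bra029350 depended on the scaling: with a common median ratio it was -0.37 (adjusted p = 0.156), while the other 3 falls stayed called.

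At 30 min, then, 5 of the 7 tested copies were called higher and 2 lower with each elicitor. Of all tested genes, 12.0% were called higher and 53.0% lower with chitin, and 13.5% higher and 54.6% lower with flg22. Groups did not overlap for 3 higher and 2 lower copies with chitin, where 10.3% and 44.7% of all tested genes were of that kind, and for 5 higher and 2 lower copies with flg22, where 12.2% and 43.6% were. The median log2 fold change of the 7 copies was 1.76 with chitin and 2.94 with flg22.

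At 180 min the copies of 1 gene no longer moved together in every case. With chitin, 4 of the 7 tested copies were called higher than water and 2 lower (21.3% and 33.3% of all tested genes), and the groups of these 6 copies did not overlap (20.1% and 28.9% of all tested genes). With flg22, 3 were called higher and 1 lower (19.0% and 22.3% of all tested genes), and the groups did not overlap for 2 of the higher copies and the lower one (20.8% and 22.0% of all tested genes). Bra008131 had its highest level of all conditions here, with 100.4, 88.7 and 57.4 FPKM in chitin and 34.4, 35.6 and 33.9 FPKM in flg22 libraries. Water libraries at 180 min had 0.74 FPKM of it in the lowest, 2.64 as the median and 7.87 in the highest library. The log2 fold changes were 4.49 ± 0.53 for chitin (limma adjusted p = 8.5e-07) and 3.31 ± 0.53 for flg22 (adjusted p = 5.9e-05).

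The other MYB122 copy, Bra015939, also remained above water. It had 22.4, 10.4 and 6.71 FPKM in chitin and 9.50, 8.88 and 4.18 FPKM in flg22 libraries at 180 min, against 0.09 in the lowest, 0.63 as the median and 3.91 FPKM in the highest water library. No treated library reached down to the water range, and the log2 fold changes were 2.69 ± 0.56 (limma adjusted p = 0.000422) and 2.04 ± 0.56 (adjusted p = 0.00624). The flg22 call was lost at the lowest of the choices of 1 water library per replicate number (1.38, adjusted p = 0.105).

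The MYB51 copies separated at 180 min. Bra016553 had 416, 411 and 318 FPKM in chitin and 233, 227 and 201 FPKM in flg22 libraries, against 75.5 in the lowest, 190.3 as the median and 278 FPKM in the highest water library. Chitin libraries lay above all water libraries (log2 fold change 1.20 ± 0.32, limma adjusted p = 0.0033), whereas flg22 libraries lay inside the water range (0.42 ± 0.32, adjusted p = 0.31, 95% interval -0.25 to 1.08). Over the choices of 1 water library per replicate number the flg22 value ran from -0.050 to 0.88, and the highest was called. Bra031035 had 51.2, 55.6 and 32.5 FPKM in chitin and 16.8, 16.6 and 10.5 FPKM in flg22 libraries, against 2.14 in the lowest, 5.13 as the median and 13.8 FPKM in the highest water library. Its log2 fold change was 2.94 ± 0.41 with chitin (adjusted p = 6.4e-06) and 1.34 ± 0.41 with flg22 (adjusted p = 0.013).

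For the flg22 value of Bra031035 at 180 min the groups overlapped only through water library 1-s7 (13.8 FPKM, against 10.5 in the lowest flg22 library). By title number, 1-s7 comes before a chitin library. Those before flg22 libraries, 1-s3, 2-s11 and 3-s19, had 3.59, 6.67 and 6.67 FPKM. No fold change against these alone is given here. The call was lost without flg22 replicate 1 or without replicate 2 (1.24 in both cases), and at the lowest of the choices of 1 water library per replicate number (0.68). Bra025666 was back at the level of water. It had 1.40, 1.31 and 1.64 FPKM in chitin and 2.51, 1.85 and 1.30 FPKM in flg22 libraries, against 1.36 in the lowest, 1.55 as the median and 2.86 FPKM in the highest water library. The log2 fold change was -0.13 with chitin (limma adjusted p = 0.62, 95% interval -0.58 to 0.31) and 0.08 with flg22 (adjusted p = 0.79, 95% interval -0.36 to 0.53).

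Of the MYB34 copies, Bra029350 was lower in every treated than in every water library at 180 min. It had 1.34, 1.30 and 2.11 FPKM in chitin and 6.25, 4.08 and 3.31 FPKM in flg22 libraries, against 11.0 in the lowest, 13.4 as the median and 16.3 FPKM in the highest water library. It fell by 2.49 ± 0.19 on the log2 scale with chitin (limma adjusted p = 4.5e-09) and by 1.41 ± 0.19 with flg22 (adjusted p = 9.5e-06). Bra029349 had 1.09, 1.52 and 3.25 FPKM in chitin libraries and 7.41, 6.23 and 8.04 FPKM in flg22 libraries, against 5.47 in the lowest, 11.0 as the median and 14.3 FPKM in the highest water library. The chitin libraries were below all water libraries (fell by 1.92 ± 0.32, adjusted p = 5.0e-05), and the flg22 libraries overlapped them (-0.38 ± 0.32, adjusted p = 0.37, 95% interval -1.05 to 0.30). That overlap came from water libraries 1-s7 (5.47 FPKM) and 2-s15 (6.88 FPKM), and the other water libraries were above all flg22 libraries. By title number, both of these come before chitin libraries. Those before flg22 libraries, 1-s3, 2-s11 and 3-s19, had 11.85, 11.14 and 14.33 FPKM, all above the flg22 libraries. No fold change against these alone is given here.

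**Figure D2:**
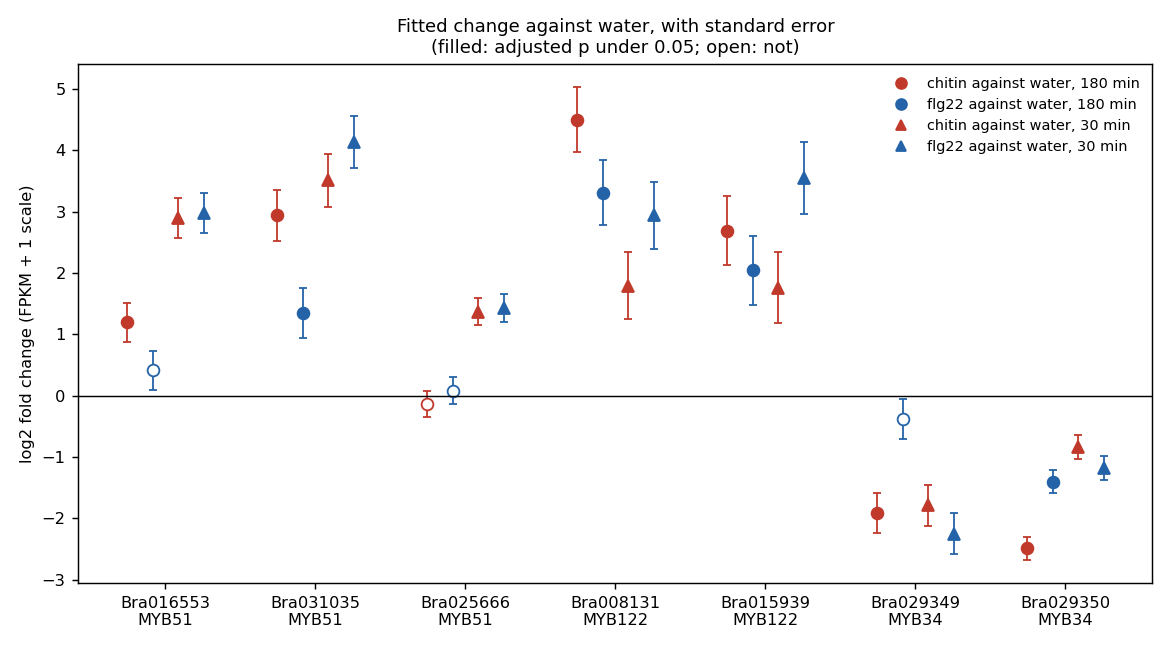
Fitted log2 fold change of each tested copy against water of the same time, with its standard error. Filled symbols passed an adjusted p of 0.05 and open symbols did not. Bra008131 reached 4.49 with chitin at 180 min, while Bra016553, Bra025666 and Bra029349 have open symbols near 0 for flg22 at 180 min.

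The elicitors were then set against each other, without regard to the separate water controls that the study lists for them. At 30 min, none of the 7 tested copies was called between chitin and flg22 (1.39% of all tested genes were called in either direction). At an unadjusted p under 0.05 there was 1, where 15.7% of all tested genes were, and it also passed a fold change of 2 (3.5% of all tested genes). This was Bra015939, with a log2 difference of -1.79 (limma adjusted p = 0.204, 95% interval -3.14 to -0.44). Without chitin replicate 1 it was -2.70 and called (adjusted p = 0.0172). For Bra016553 the difference was -0.08 (95% interval -0.84 to 0.69) and for Bra025666 -0.06 (95% interval -0.58 to 0.45). Bra008131 was lower in all 3 chitin than in all 3 flg22 libraries (7.51% of all tested genes), with a difference of -1.15 that was not called (adjusted p = 0.363, 95% interval -2.43 to 0.12).

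At 180 min, 1 copy was called higher and 2 lower in chitin than in flg22 libraries, where 4.08% and 7.27% of all tested genes were. Bra031035 averaged 46.4 ± 12.2 FPKM with chitin and 14.6 ± 3.56 FPKM with flg22 (SD, n = 3 each), a log2 difference of 1.60 ± 0.48 (limma adjusted p = 0.0346). Bra029349 averaged 1.95 ± 1.14 FPKM with chitin and 7.23 ± 0.92 FPKM with flg22, a difference of -1.54 ± 0.37 (adjusted p = 0.0114). Bra029350 averaged 1.58 ± 0.45 FPKM with chitin and 4.55 ± 1.52 FPKM with flg22, a difference of -1.08 ± 0.22 (adjusted p = 0.00328). The first of these calls was lost without any 1 of chitin replicates 1 and 2 and flg22 replicates 1, 2 and 3 (1.39 to 1.70), with a pseudocount of 0.1 and without the filter on low values, and that of Bra029349 without chitin replicate 1 or 2 or flg22 replicate 3 (-1.47 to -1.32). The call for Bra029350 held without each of these libraries.

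In all chitin libraries, 3 copies were higher and 2 lower than in all flg22 libraries at 180 min, which was so for 14.4% and 27.3% of all tested genes. The lower ones were both MYB34 copies. The higher ones were Bra031035, Bra016553 and Bra008131. Bra016553 had a log2 difference of 0.78 ± 0.37 (limma adjusted p = 0.169) and Bra008131 one of 1.18 ± 0.61 (adjusted p = 0.213). Both were called when only the libraries compared entered the fit, or when water libraries were averaged by replicate number, so that 5 copies were then called.

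The response to an elicitor, its log2 fold change against water, was compared between 180 and 30 min. The chitin response of Bra008131 was larger at 180 min by 2.71 ± 0.76 (limma adjusted p = 0.0072), 4.49 at 180 min against 1.79 at 30 min. With the smaller pseudocount of 0.1 the difference was 2.61 and not called. The chitin responses of Bra016553 and Bra025666 were smaller at 180 min, by -1.70 ± 0.46 (adjusted p = 0.0054) and -1.50 ± 0.31 (adjusted p = 0.00073). That of Bra029350 was more negative at 180 min, by -1.66 ± 0.27 (adjusted p = 9.6e-05). The chitin response of Bra015939 differed by 0.93 (adjusted p = 0.354), and without chitin replicate 1 at 30 min by 1.84 and was called (adjusted p = 0.0384). In all, with every library, 1 copy was called higher and 3 lower, against 30.8% and 14.8% of all tested genes.

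The flg22 responses also changed with time in 4 copies. Those of Bra031035, Bra016553 and Bra025666 were smaller at 180 min, by -2.79 ± 0.59 (limma adjusted p = 0.00065), -2.56 ± 0.46 (adjusted p = 0.00012) and -1.35 ± 0.31 (adjusted p = 0.0012). That of Bra029349 differed by 1.87 ± 0.47 (adjusted p = 0.0024), being -0.38 at 180 min and -2.25 at 30 min. Of all tested genes, 37.1% were called higher and 12.0% lower. The MYB122 copies gave 0.37 (Bra008131, adjusted p = 0.708, 95% interval -1.22 to 1.95) and -1.50 (Bra015939, adjusted p = 0.129, 95% interval -3.18 to 0.18).

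Within treatments, the levels themselves were compared at 180 against 30 min. With chitin, Bra008131 averaged 82.2 ± 22.2 FPKM at 180 min and 10.9 ± 8.12 FPKM at 30 min (SD, n = 3 each), 7.57 times as much, and was the only copy called higher (40.9% of all tested genes). The other MYB122 copy, Bra015939, differed by 1.32 (limma adjusted p = 0.0814), and without chitin replicate 1 at 30 min by 2.23 (adjusted p = 0.00291), when it too was called higher. Among the others, 3 were called lower (21.8% of all tested genes): Bra029350, with a log2 difference of -1.91 (limma adjusted p = 7.0e-07), Bra025666, with -1.09 (adjusted p = 0.000805), and Bra016553, with -0.88 (adjusted p = 0.0437). The call for Bra016553 was lost without any 1 of the 6 chitin libraries (-0.94 to -0.75), without the filter on low values and with TPM. Bra031035 was lower in all 3 libraries at 180 min than in all 3 at 30 min, but its difference of -0.84 was not called (limma adjusted p = 0.132). It was called with only the conditions compared (adjusted p = 0.0354), with water averaged by replicate number (adjusted p = 0.0137) and with median-ratio scaling (-1.23, adjusted p = 0.0218). Bra029349 differed by -0.74 (adjusted p = 0.0923). It was called with the replicate number as a block (adjusted p = 0.0313), without chitin replicate 1 at 30 min (-1.13), without replicate 3 at 180 min (-1.03) and with median-ratio scaling (-1.05).

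With flg22, Bra029349 averaged 7.23 ± 0.92 FPKM at 180 min and 2.79 ± 2.30 FPKM at 30 min, and was the only copy called higher (log2 difference 1.27, limma adjusted p = 0.0058; 46.8% of all tested genes). With median-ratio scaling the difference was 0.85 and not called. Bra031035 (-3.06), Bra016553 (-1.74) and Bra025666 (-0.94) were called lower (16.5% of all tested genes). The other 3 copies were called under some alternatives. Bra008131 was higher in all flg22 libraries at 180 than at 30 min (log2 difference 0.64, limma adjusted p = 0.372) and was called with only the conditions compared (adjusted p = 0.00217). Bra015939 (-1.11, adjusted p = 0.138) was called lower in that fit (adjusted p = 0.00606) and with median-ratio scaling (-1.63, adjusted p = 0.0392). Bra029350 (-0.48, adjusted p = 0.0595) was called lower with that scaling (-0.95, adjusted p = 0.000947) and without flg22 replicate 1 of 180 min (-0.69) or of 30 min (-0.59). Water libraries gave no call among the 7 copies (11.4% of all tested genes), and 3 at an unadjusted p under 0.05 (23.6% of all tested genes). The closest was Bra016553, with 178 ± 71.2 FPKM at 180 min (SD, n = 6) and 99.5 ± 43.3 FPKM at 30 min (SD, n = 5), a log2 difference of 0.83 (adjusted p = 0.0549). It was called without either of the water libraries 2-s9 and 3-s17 at 30 min and 2-s15 and 3-s23 at 180 min (0.91 to 1.05).

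Copies of 1 gene did not respond in equal measure. For each of 5 pairs of tested copies, the difference of their log2(FPKM + 1) was taken within each library and compared between elicitor and water libraries of the same time in a two-sided exact permutation test. Of the 20 tests, 15 had a Benjamini-Hochberg adjusted p under 0.05 over the 20. The smallest p such a test can give is 0.0179 at 30 min (3 against 5 libraries) and 0.0119 at 180 min (3 against 6).

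The response of Bra031035 exceeded that of Bra016553 in 3 of 4 comparisons. The within-library difference of Bra016553 minus Bra031035 averaged 3.08 ± 0.40 with chitin and 2.53 ± 0.32 with flg22 at 30 min, against 3.68 ± 0.35 with water (SD). At 180 min it averaged 3.04 ± 0.20 with chitin and 3.85 ± 0.25 with flg22, against 4.78 ± 0.36 with water. The response of Bra016553 was smaller by 1.74 with chitin at 180 min and by 0.93 with flg22 at 180 min (exact permutation p = 0.0119, adjusted p = 0.0275 in both), and by 1.16 with flg22 at 30 min (exact p = 0.0179, adjusted p = 0.0275). With chitin at 30 min the difference was -0.61 (exact p = 0.0893, adjusted p = 0.0992), and with a pseudocount of 0.1 it was -0.79 and called (adjusted p = 0.0476). As a share of the summed FPKM of the MYB51 copies, Bra031035 made up 10.6% ± 2.78 with chitin and 14.8% ± 2.79 with flg22 at 30 min, against 6.36% ± 1.69 with water, and 10.7% ± 1.34, 6.11% ± 1.02 and 2.96% ± 0.97 at 180 min in the same order (SD). Bra016553 held between 84.7% and 96.0% on average in every condition.

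Bra025666 responded less than Bra031035 in all 4 comparisons, by 1.26 to 3.07 on the log2 scale (adjusted p of the exact permutation tests 0.0275 to 0.0317). It responded less than Bra016553 in 3, by 1.33 to 1.55 (adjusted p = 0.0275 each), and with flg22 at 180 min the difference was 0.33 (exact p = 0.405). At its low level the added 1 FPKM matters: with 0.1 in its place, Bra016553 minus Bra025666 was 0.90 at 30 min with both elicitors, and neither was called.

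The neighbouring MYB34 copies changed order with time. Bra029350 had more FPKM than Bra029349 in 17 of 23 libraries, among them all 11 at 30 min, and Bra029349 had more in 3 of 3 flg22 and 2 of 3 chitin libraries at 180 min, against 1 of 6 water libraries. In water libraries at 30 min they were nearly level, with a within-library log2 difference (Bra029349 minus Bra029350) of -0.08 ± 0.07, against which chitin gave -1.03 ± 0.48 and flg22 -1.15 ± 0.49 (SD). Bra029349 thus fell further than Bra029350 at 30 min, by 0.95 with chitin and 1.07 with flg22 (exact permutation p = 0.0179, adjusted p = 0.0275 in both). At 180 min the sign was opposite, at 1.03 with flg22 (exact p = 0.0238, adjusted p = 0.0317) and 0.57 with chitin (exact p = 0.0714, adjusted p = 0.084). The treated and water libraries overlapped in both. The flg22 call was lost in 7 of the 9 tests that left out 1 library, where the smallest possible p is also higher. Bra029350 made up 69.5% ± 9.38 and 73.0% ± 10.4 of the summed MYB34 FPKM with chitin and flg22 at 30 min, against 51.3% ± 1.30 with water. At 180 min its share was 46.6% ± 7.59 with chitin and 38.2% ± 8.38 with flg22, against 57.9% ± 8.06 with water.

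Bra008131 had more FPKM than Bra015939 in 23 of 23 libraries. Its lead was smallest with flg22 at 30 min, when it held 56.9% ± 2.15 of the summed MYB122 FPKM, against 88.5% ± 10.6 with water. It was largest among treated groups with chitin at 180 min, at 86.9% ± 4.49, against 77.4% ± 9.31 with water. At 180 min the response of Bra015939 was smaller than that of Bra008131 by 1.81 with chitin and 1.27 with flg22 (exact permutation p = 0.0119, adjusted p = 0.0275 in both). With a pseudocount of 0.1 the flg22 difference at 180 min was -0.68 and not called. At 30 min the difference was 0.60 with flg22 (exact p = 0.0536, adjusted p = 0.067), and 1.73 and called with the smaller pseudocount. With chitin at 30 min it was -0.03 (exact p = 0.929), and turned to 0.85 (adjusted p = 0.0476) with the smaller pseudocount, so the order of the responses of the MYB122 copies at 30 min depends on how values near 0 are treated.

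**Figure D3:**
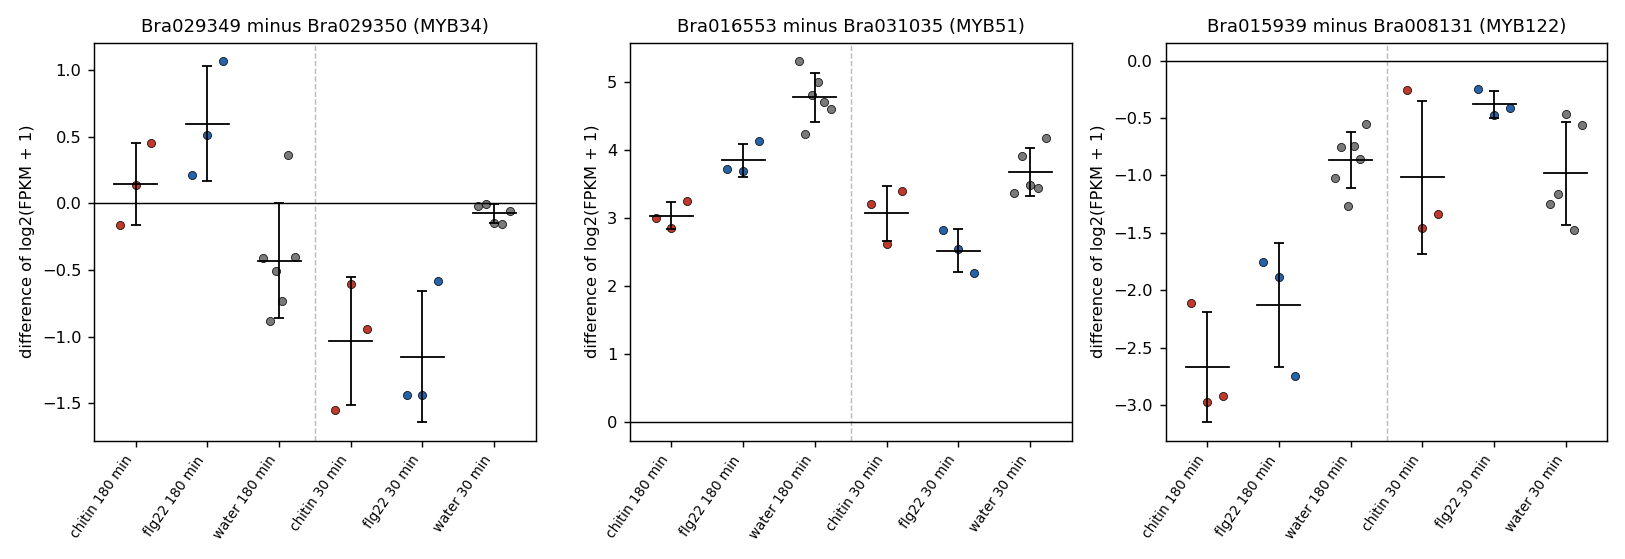
Difference of log2(FPKM + 1) between 2 copies of 1 gene within each library, by treatment and time. Each point is 1 library, lines and bars are the mean and SD, and 0 means equal levels. Bra029349 minus Bra029350 lies below 0 in all libraries at 30 min and above 0 in all 3 flg22 libraries at 180 min.

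Summed over copies, the 3 genes took different courses. MYB51 had 786 ± 48.8 FPKM with chitin and 870.2 ± 51.0 with flg22 at 30 min, against 108 ± 47.7 with water, and 429.8 ± 66.8, 237 ± 21.2 and 186 ± 75.5 FPKM at 180 min in the same order (SD). MYB122 had 17.6 ± 16.8 and 38.6 ± 3.26 FPKM at 30 min, against 3.46 ± 3.97 with water, and 95.3 ± 29.6 and 42.2 ± 3.52 FPKM at 180 min, against 4.61 ± 4.28 with water. MYB34 had 12.8 ± 3.71 and 9.51 ± 4.03 FPKM at 30 min, against 31.6 ± 4.73 with water, and 3.54 ± 1.58 and 11.8 ± 1.71 FPKM at 180 min, against 23.7 ± 4.77 with water. By these means MYB51 was the most abundant of the 3 in every condition, and MYB34 the least abundant in all treated conditions. For chitin at 30 min the place of MYB34 rested on replicate 1: MYB122 summed to 37.1, 7.89 and 7.89 FPKM and MYB34 to 8.77, 13.5 and 16.1 FPKM in replicates 1, 2 and 3, so that MYB34 exceeded MYB122 in 2 of the 3 libraries.

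**Figure D4:**
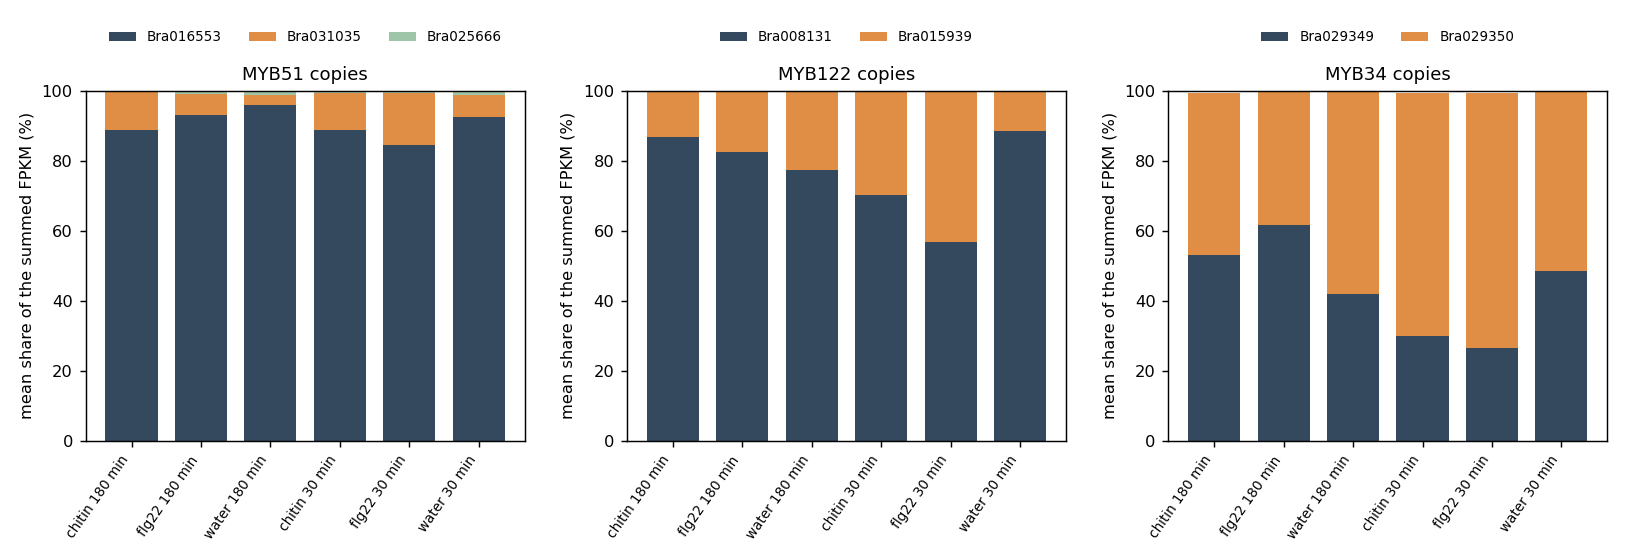
Mean share of each copy in the summed FPKM of its gene, in percent, by treatment and time. Bra016553 (MYB51) holds 84.7% to 96.0% in every condition, while the shares within MYB34 and MYB122 vary between conditions. The untested MYB34 copies Bra013000 and Bra035954 account for the thin gap below 100%.

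The order of conditions differed between copies. Bra016553 was highest with flg22 and chitin at 30 min, whose difference did not pass the test (adjusted p = 0.934), followed by chitin, flg22 and water at 180 min and water at 30 min. Of these neighbours, chitin at 30 min and chitin at 180 min differed (limma adjusted p = 0.0437), and the others did not pass the test. Bra008131 was highest with chitin at 180 min, then flg22 at 180 min, flg22 at 30 min, chitin at 30 min and water, and the first neighbours to differ were chitin at 30 min and water at 180 min (adjusted p = 0.0158). Bra029350 was highest in water and lowest with chitin at 180 min, below flg22 at 180 min (adjusted p = 0.00328).

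Over the 23 libraries, log2(FPKM + 1) of Bra016553, the most abundant copy, correlated with that of Bra031035 (Pearson r = 0.934), Bra025666 (0.823), Bra015939 (0.767) and Bra008131 (0.658), and negatively with Bra029349 (-0.781) and Bra029350 (-0.509). These coefficients describe libraries that fall into 6 conditions and are not tests. Among 16200 other genes with a mean of at least 5 FPKM, Bra011916 and Bra026156 were most like Bra016553 (r = 0.981 each). Bra011916 averaged 1573 ± 442 FPKM with chitin and 1843 ± 336 with flg22 at 30 min, against 116 ± 57.0 with water (SD). The sources used here give neither gene a name.

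For the same comparisons, 3 glucosinolate synthesis genes that the study names by ID were read: CYP79B3 (Bra030246), which acts on tryptophan, UGT74B1 (Bra024634), which adds the glucose, and APK2 (Bra017872), which helps supply the activated sulfate. The study picked them in these libraries because they changed with chitin at 180 min alone, so their pattern over time and elicitors was part of the choice and is given as a description. Homologs of other glucosinolate synthesis genes were not analysed here, so these 3 do not stand for the indolic pathway. At 30 min none of the 3 was called higher with either elicitor, and CYP79B3 was called lower with both (log2 fold change -1.50 with chitin, limma adjusted p = 0.00078, and -1.56 with flg22, adjusted p = 0.00045). At 180 min all 3 were called higher with chitin, and UGT74B1 with flg22 (1.20, adjusted p = 0.00786), a call lost at the lowest of the choices of 1 water library per replicate number (0.69, adjusted p = 0.102). Between the elicitors at 180 min, APK2 and CYP79B3 were called higher with chitin than with flg22.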

How the data were processed

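RNA of pooled leaf discs was made into stranded TruSeq mRNA libraries and sequenced on an Illumina NovaSeq. Per the submitters' notes and methods, the authors trimmed reads with Trimmomatic (version 0.36), mapped them with HISAT2 to the B. rapa v1.5 chromosomes and ran StringTie (version 2.0). They deposited FPKM, TPM and coverage of 41020 genes for each of 23 libraries. The deposited FPKM were the main values, the deposited TPM an alternative, and the deposited coverage, a signal of reads per base, gave the depth. The read counts that the authors tested with DESeq2 were not analysed here.

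Genes with at least 1 FPKM in at least 3 libraries were tested on the log2(FPKM + 1) scale in limma (version 3.58.1, under R version 4.3.3), which held 1 coefficient for each of 6 conditions and let the variance follow the mean level, and p-values were Benjamini-Hochberg adjusted over 24384 genes. The fit was tested on simulated data. Named genes are the 9 copies, 3 pathway and 2 check genes that the study names by ID, and the 2 genes most like the most abundant copy. The copies, lists and comparisons were chosen with earlier results of these data known. Leaf markers were not checked, since the sources pair none with a gene ID. The RefSeq name table (assembly CAAS_Brap_v3.01) matched none of the 9 copies, and no sequence is shown.

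Alternatives were a pseudocount of 0.1, other filters and call rules, TPM, median-ratio scaling, a replicate block, a fit to only the conditions compared, the mean of the water libraries with 1 number, each choice of 1 water library per number (32 choices) and leaving out each library. With water averaged by number, same-numbered deviations from the condition means correlated at over 0.1 in every pair between water and chitin of 30 min (range 0.31 to 0.47), flg22 of 30 min (range 0.24 to 0.43) and chitin of 180 min (range 0.15 to 0.51), but not flg22 of 180 min (range -0.05 to 0.18). Between single libraries no comparison met this. Against water, these pairs held libraries of both control sets, so they do not test the pairing of an elicitor with its own control.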

Additional observations from a re-analysis of the deposited data

Results flagged for a closer look

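Of 14 groups of water libraries tested, 2 held a library far from the others, and chance alone is expected to single out about 1 in 20 groups. Bra025666 (MYB51) had 2.86 FPKM in water library 1-s7 at 180 min, and Bra015939 (MYB122) had 2.20 FPKM in water library 3-s17 at 30 min. Of 14 responses, 8 differed between 180 and 30 min by the limma test of the difference itself, as log2 response at 180 minus that at 30 min. For chitin these were Bra008131 (MYB122, 2.71), Bra016553 (MYB51, -1.70), Bra025666 (MYB51, -1.50) and Bra029350 (MYB34, -1.66). For flg22 they were Bra031035 (MYB51, -2.79), Bra016553 (-2.56), Bra025666 (-1.35) and Bra029349 (MYB34, 1.87).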

How the results depend on the processing

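Without read counts, counting error is unknown. The replicate block changed 1 call, that of Bra029349 between 180 and 30 min of chitin (-0.74, adjusted p = 0.0313), and no other call of a copy. Of the values of single copies, genes and copy pairs over all alternatives, 1844 kept their direction and their side of the threshold, 97 lost a call, 47 gained one and 31 changed sign. Every value that changed sign had not been called. With median-ratio scaling these were the flg22 response of Bra008131 at 180 against 30 min (-0.15), APK2 with chitin at 30 min (0.33, and 0.33 with the block) and BraEF1α with flg22 at 30 min (0.091, and 0.11 with the block). With a pseudocount of 0.1 it was Bra015939 minus Bra008131 with chitin at 30 min (0.85). Over the choices of 1 water library per number, the highest value of water at 180 against 30 min was 0.043 for Bra029350 and 0.80 for Bra031035, and the lowest was -0.024 for Bra016553, -0.68 for Bra015939 and -1.20 for Bra008131. For flg22 at 180 min the lowest was -0.050 for Bra016553 and -0.046 for Bra025666 and the highest 0.16 for CYP79B3, and for chitin at 30 min the highest was 0.11 for APK2. Leaving out 1 library gave -0.52 to 0.086 for the chitin response of Bra029349 at 180 against 30 min, and -0.027 to 0.65 for the flg22 response of Bra008131. It gave -0.0081 to 0.66 for Bra008131 in water at 180 against 30 min, -0.069 to 0.24 for Bra025666 with flg22 at 180 min and -0.25 to 0.090 for Bra025666 between chitin and flg22 at 30 min. It gave -0.42 to 0.19 for Bra015939 minus Bra008131 and -0.43 to 0.087 for APK2, both with chitin at 30 min, and -0.33 to 0.054 for CYP79B3 with flg22 at 180 min. The count of called copies between chitin and flg22 at 180 min was 5 with only the conditions compared, 5 with water averaged by number and 1 to 3 without 1 library. That between chitin and flg22 at 30 min was 0 to 1 without 1 library, and 1 at a fold change of 2 with an unadjusted p under 0.05. That of water at 180 against 30 min was 0 to 1 without 1 library, 1 with median-ratio scaling, 1 with water averaged by number and at most 3 over the choices of 1 water library. With flg22 at 180 min it was as low as 2 over those choices. The counts of the other comparisons stayed within 1.5 times. Of the copy tests, 11 to 16 of 20 were called without 1 library, but fewer libraries also raise the smallest p that the exact test can give.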

Other observations

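Levels of the induced copies in water libraries are given here beside those of the elicitor-responsive gene BraNHL10. At 30 min, water library 3-s17 had the highest values of the 5 for BraNHL10 (14.9 FPKM), Bra016553 (162 FPKM), Bra031035 (13.9 FPKM), Bra015939 (2.20 FPKM) and Bra008131 (7.91 FPKM). The lowest BraNHL10 was in library 3-s21 (3.02 FPKM), which had 66.2 FPKM of Bra016553, 2.71 of Bra031035 and 0.48 of Bra008131, and in which Bra015939 was listed at 0. At 180 min, library 3-s19 had the highest BraNHL10 (17.5 FPKM), Bra015939 (3.91 FPKM) and Bra008131 (7.87 FPKM) of the 6, while 1-s7 had the highest Bra016553 (278 FPKM) and Bra031035 (13.8 FPKM). Bra025666 had its highest level in other libraries than BraNHL10 did, at 1.96 FPKM in 2-s9 at 30 min, where 3-s17 had 1.07 FPKM, and at 2.86 FPKM in 1-s7 at 180 min, where 3-s19 had 1.53 FPKM. Library 1-s3 at 180 min had 182 FPKM of Bra016553 with 3.53 FPKM of BraNHL10. By title number, 3-s17, 3-s19, 2-s9 and 1-s3 come before flg22 libraries, and 3-s21 and 1-s7 before chitin libraries. These libraries were singled out after their values were seen, and what sets them apart was not tested.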
